A study of Mus musculus with 12 samples.

Results

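The genes described here are 35 genes of the autophagy machinery, chosen by name from their known roles in starting, building and loading the autophagosome. The choice was made with earlier results of these data known. Shares of the 35 set against all tested genes below are therefore descriptions. All 35 were found among the 23965 gene rows of the read-count table, with 1 row each, and all 35 passed the filter on low counts that left 15608 genes for testing. RNA had been sequenced from neurospheres, floating clusters of neural progenitors, grown from ventral midbrain of E11.5 embryos of the CD-1 mouse strain and expanded for 3 days. For the last 5 h all cultures were in N2 medium. The 4 groups differed in what was added. It was the solvent DMSO alone (control), or GW3965, which activates the liver X receptors (LXR). The others received CT99021 (also known as CHIR99021), which inhibits glycogen synthase kinase 3 (GSK3), or GW3965 and CT99021 together. Each group had 3 libraries, numbered 1 to 3 in every group. No genotype or transgene separates the groups. What the numbers stand for is not stated, and neither is whether libraries came from separate animals or cultures, so p-values cover only the spread among these samples, which may be technical.

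Autophagy encloses cytoplasm in a double membrane and delivers it to the lysosome. A kinase complex built on Ulk1 or Ulk2 starts it, a lipid kinase complex marks the membrane with phosphatidylinositol 3-phosphate, Atg9 vesicles and Atg2 proteins supply lipid, and a conjugation cascade couples small ubiquitin-like proteins of the Atg8 family to the growing membrane, where cargo receptors dock. mTORC1 restrains the Ulk1 complex when nutrients are plentiful and AMPK activates it when energy is low. In the developing nervous system the pathway is needed for turnover of proteins and organelles, and mice that lack Atg5 or Atg7 in neural cells develop neurodegeneration. GSK3 inhibition stabilises β-catenin, the effector of canonical Wnt signalling, while LXR ligands switch on cholesterol export and lipid synthesis genes.

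In a model with the replicate number as a block, 4 of the 5 genes that start autophagy fell after CT99021. Of the 7 genes of the conjugation cascade 0 fell, which for 7 genes is near the 7.59% of all tested genes that were lower. The difference between these groups of genes was not tested. Atg13, the adaptor that holds the initiation complex together, had the lowest fold change, with a mean of 43.9 ± 3.38 CPM (the usual count rate of RNA sequencing, relative to the library total) in control and 16.9 ± 1.46 in CT99021 libraries (SD, n = 3 each). With the replicate number as a block in the model, CT99021 lowered 11 of the 35 genes against control and raised 1, where 7.59% of all tested genes were lower and 8.23% higher. In the presence of GW3965 it lowered 11 and raised 1, where 8.81% and 11.8% of all tested genes were lower and higher. Without the block 1 of the 35, Atg13, passed in each of these comparisons. GW3965 alone changed none of them past the test in either model.

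Sequences upstream of the annotated start were available for 29 of the 35 genes, from RefSeq on build GRCm38.p6. The 250 bases before the start are shown for 3 initiation genes that fell after CT99021 and for Atg3, a conjugation gene that did not fall, because they contrast windows without and with the letters CACGTG. These letters are an E-box form read by TFEB and its relatives, among other factors. TFEB and its relatives are transcription factors of lysosome and autophagy genes. The letters are in capitals below. The windows are chr2:91710593-91710842 (minus strand) for Atg13, chr5:110810082-110810331 (minus strand) for Ulk1, chr11:61855093-61855342 (minus strand) for Ulk2 and chr16:45158579-45158828 (plus strand) for Atg3, each printed 5′ to 3′ on the gene's strand.
Atg13: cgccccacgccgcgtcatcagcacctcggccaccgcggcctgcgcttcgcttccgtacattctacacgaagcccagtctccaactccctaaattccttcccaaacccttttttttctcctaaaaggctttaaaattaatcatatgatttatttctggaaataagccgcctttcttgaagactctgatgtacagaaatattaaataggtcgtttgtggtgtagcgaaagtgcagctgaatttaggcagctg
Ulk1: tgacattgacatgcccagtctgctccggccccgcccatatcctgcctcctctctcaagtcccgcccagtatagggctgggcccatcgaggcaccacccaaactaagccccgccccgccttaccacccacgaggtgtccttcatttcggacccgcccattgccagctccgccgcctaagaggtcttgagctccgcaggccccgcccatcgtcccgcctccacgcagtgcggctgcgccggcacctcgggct
Ulk2: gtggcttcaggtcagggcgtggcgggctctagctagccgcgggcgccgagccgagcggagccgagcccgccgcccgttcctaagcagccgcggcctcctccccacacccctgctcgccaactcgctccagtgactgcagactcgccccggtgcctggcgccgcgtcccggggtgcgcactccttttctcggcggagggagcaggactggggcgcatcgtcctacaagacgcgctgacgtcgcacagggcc
Atg3: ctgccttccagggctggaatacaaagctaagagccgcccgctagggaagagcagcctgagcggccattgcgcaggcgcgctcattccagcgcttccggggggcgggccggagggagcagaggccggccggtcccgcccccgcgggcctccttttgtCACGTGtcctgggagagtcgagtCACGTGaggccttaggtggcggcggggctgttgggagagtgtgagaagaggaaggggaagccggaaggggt

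CACGTG, which reads the same on both strands, was found in 3 of 32 windows of these genes (a gene can have several starts), those of Atg3, Atg5 and Atg7. All 3 genes belong to the conjugation cascade. In Atg3 the letters occurred at 2 places, 94 and 71 bases before the start, in Atg5 at 14 bases and in Atg7 at 132 bases. The Atg7 window was chr6:114670846-114671095, where the gene is listed at 114593018 in mm9. For Gabarapl1, on the same strand of that chromosome, these were chr6:129532942-129533191 and 129483109, which lie closer together. The Atg7 window may therefore precede a start inside the gene, and use of that start was not tested. Of all 32851 windows of that length in the RefSeq set, 6.02% held CACGTG, and of windows of tested genes 7.96%. The longer TCACGTG, read on either strand, was in 2 of the 32 windows, those of Atg3 and Atg7. It was in 3.13% of all windows and 4.53% of windows of tested genes. None of the 9 windows (8 genes) of the genes lower in both CT99021 comparisons held CACGTG. For so few windows these counts are near the background. No window was available for Rb1cc1 and Pik3c3 among the lowered genes, Atg12 and Atg16l1 among conjugation genes, or Becn1 and Map1lc3a. Neither TGTTTAC, a form read by FoxO factors, nor CTTTGAT, the form read by the β-catenin partners of the TCF family, was found on either strand in those 9 windows. Among all windows of these genes TGTTTAC was in none and CTTTGAT in 1, that of Atg4a, against 3.17% and 3.21% of all windows and 2.12% and 2.22% of windows of tested genes. The match is a description of letters in a 250-base window and says nothing of binding.

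Gene totals ran from 9646424 to 21314093 counts per library, and the 35 genes together took 0.182% to 0.277% of them. CT99021 replicate 1 stood apart in having 7.95% of its counts in Lars2, against 0.0336% to 0.142% in the other libraries. The 4 libraries numbered 3 and GW3965+CT99021 replicate 2 also stood apart in an earlier view of the data. How they stood apart is not shown here. CT99021 replicate 1 is among the 7 libraries outside that set, so fits to those 7 are no check on it. With the block, the Wnt targets Axin2, Lef1, Nkd1 and Notum all rose after CT99021, and the LXR targets Abca1, Abcg1 and Srebf1 all rose after GW3965. Without it 0 of the 4 and 0 of the 3 passed in these comparisons. All 7 neural progenitor markers and all 7 ventral midbrain markers were tested, and none was at 0 throughout a group. The summed level of mesenchyme markers ranged from 220 to 3658 CPM between libraries, that of erythroid markers from 174 to 1044 CPM and that of microglia markers from 6.37 to 20.3 CPM. In these bulk samples fewer cells of a type and less RNA per cell cannot be told apart.

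The comparison of CT99021 with control asks what GSK3 inhibition did over 5 h. Because libraries with the same number deviated together, the values below come from a fit of edgeR's quasi-likelihood test in which the replicate number was a block. A gene is past the test at a Benjamini-Hochberg adjusted p under 0.05 over all 15608 genes. Of the 35 genes 12 passed, against a background of 15.8% of all tested genes, and 11 of the 12 were lower, against a background of 7.59% lower and 8.23% higher. The median log2 fold change of the 35 was −0.20, and that of all tested genes was 0.02. Without the block only 1 of the 35 passed, Atg13, where 0.0577% of all genes did, and 10 had an unadjusted p under 0.05. Of all changes of single genes called below, those of Atg13 in 3 comparisons and of Ulk1 in the combination against control passed without the block, and every other one did not. The groups of 3 libraries did not overlap for 11 of the 35 on the lower side, against a background of 7.62% of tested genes.

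**Figure D1:**
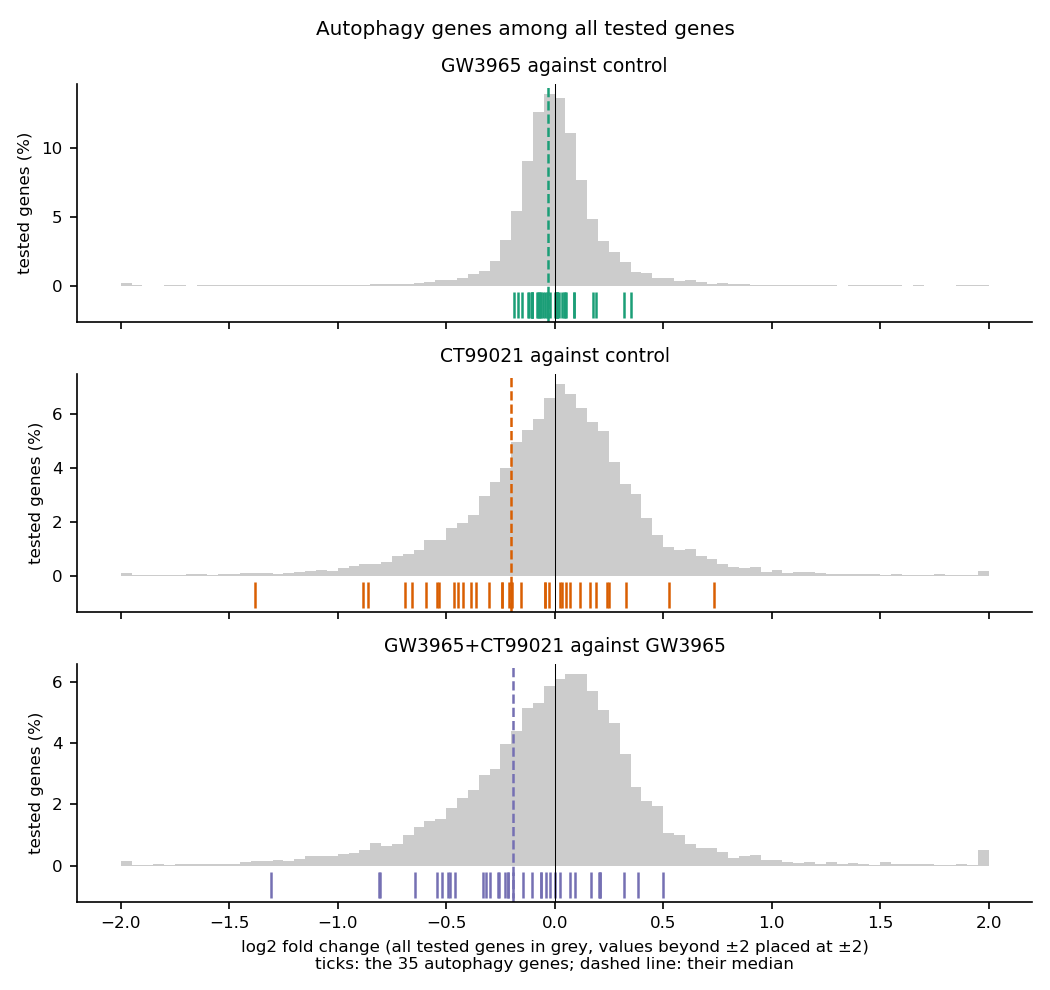
Distribution of log2 fold changes (x axis) as a percentage of all tested genes (grey bars, y axis) in the comparisons GW3965 against control, CT99021 against control and GW3965+CT99021 against GW3965. Coloured ticks are the 35 autophagy genes and the dashed line is their median, which was −0.03, −0.20 and −0.19 in that order.

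Levels before treatment set the scale for what follows. Per kilobase of the listed transcript length, Sqstm1 was the most abundant of these genes in control libraries, at 152 ± 15.6 CPM per kilobase (SD, n = 3). It was followed by Gabarap at 132 ± 24.7, Map1lc3b at 87.1 ± 11.7, Gabarapl1 at 55.9 ± 6.92 and Gabarapl2 at 52.0 ± 3.69 CPM per kilobase. The first pair in this order did not differ beyond its spread, nor did the last pair. The initiation genes lay lower and close together, with Ulk1 at 24.1 ± 1.03, Ulk2 at 22.4 ± 1.28, Ambra1 at 17.4 ± 1.54, Rb1cc1 at 13.0 ± 1.66 and Atg13 at 12 ± 0.92 CPM per kilobase. Atg9b was barely present, at 0.172 ± 0.0645 CPM per kilobase. Sqstm1 and the 5 Atg8 genes thus led the order, with Map1lc3a, at 45.1 ± 13.6 CPM per kilobase, next after Gabarapl2 and within its spread.

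Of the 5 initiation genes 4 fell. Atg13, listed on chromosome 2 at position 91514768 of build mm9 on the minus strand, measured 43.5, 40.8 and 47.5 CPM in control replicates 1 to 3. It measured 16.7, 15.5 and 18.4 CPM after CT99021, 16.7, 14.4 and 19.6 CPM after both compounds, and 41.2, 34.6 and 50.5 CPM after GW3965. Every library that had received CT99021 was below every library that had not. The log2 fold change of CT99021 against control was −1.38 ± 0.09 (SE; edgeR, replicate block, adjusted p = 4.7e-05), and the change passed without the block too (adjusted p = 0.0167).

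Ulk1, the kinase of the complex (chromosome 5, position 111213507, minus strand, mm9), measured 126, 123 and 134 CPM in control and 84.1, 87.6 and 91.3 CPM in CT99021 libraries. With both compounds it measured 78.0, 80.7 and 75.03 CPM and with GW3965 122, 110 and 108 CPM. All 6 libraries with CT99021 lay below all 6 without it. The log2 fold change of CT99021 against control was −0.54 ± 0.07 (adjusted p = 0.00193 with the block and 0.0816 without, edgeR). Its paralog Ulk2 (chromosome 11, position 61589099, minus strand, mm9) measured 140, 125 and 133 CPM in control, 89.9, 76.2 and 85.7 CPM in CT99021, 98.1, 77.6 and 85.4 CPM in combination and 139, 123 and 105 CPM in GW3965 libraries. Here too every library with CT99021 lay below every library without it, by a log2 fold change of −0.66 ± 0.08 against control (adjusted p = 0.00162 with the block and 0.144 without, edgeR).

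Rb1cc1, which encodes the scaffold FIP200 (chromosome 1, position 6204642, plus strand, mm9), measured 88.2, 84.5 and 107 CPM in control and 65.0, 55.7 and 63.7 CPM in CT99021 libraries. It measured 83.2, 87.1 and 122 CPM with GW3965 and 61.8, 67.4 and 81.7 CPM with both compounds. Every library with CT99021 was again below every library without it, and CT99021 lowered Rb1cc1 by a log2 fold change of −0.59 ± 0.10 against control (adjusted p = 0.00452 with the block and 0.284 without, edgeR). Ambra1, a regulator that joins the initiation and lipid kinase complexes, was the exception among the 5: it averaged 93.7 ± 8.33 CPM in control and 96.3 ± 13.3 CPM in CT99021 libraries (log2 fold change 0.04 ± 0.06, not past the test). Summed over the 5 genes, initiation transcripts amounted to 491 ± 18.3 CPM in control, 469 ± 9.09 with GW3965, 346 ± 2.14 with CT99021 and 343 ± 3.68 CPM with both (SD, n = 3 each). The sums with CT99021 ran from 339 to 349 CPM and those without from 459 to 511 CPM, with no overlap.

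**Figure D2:**
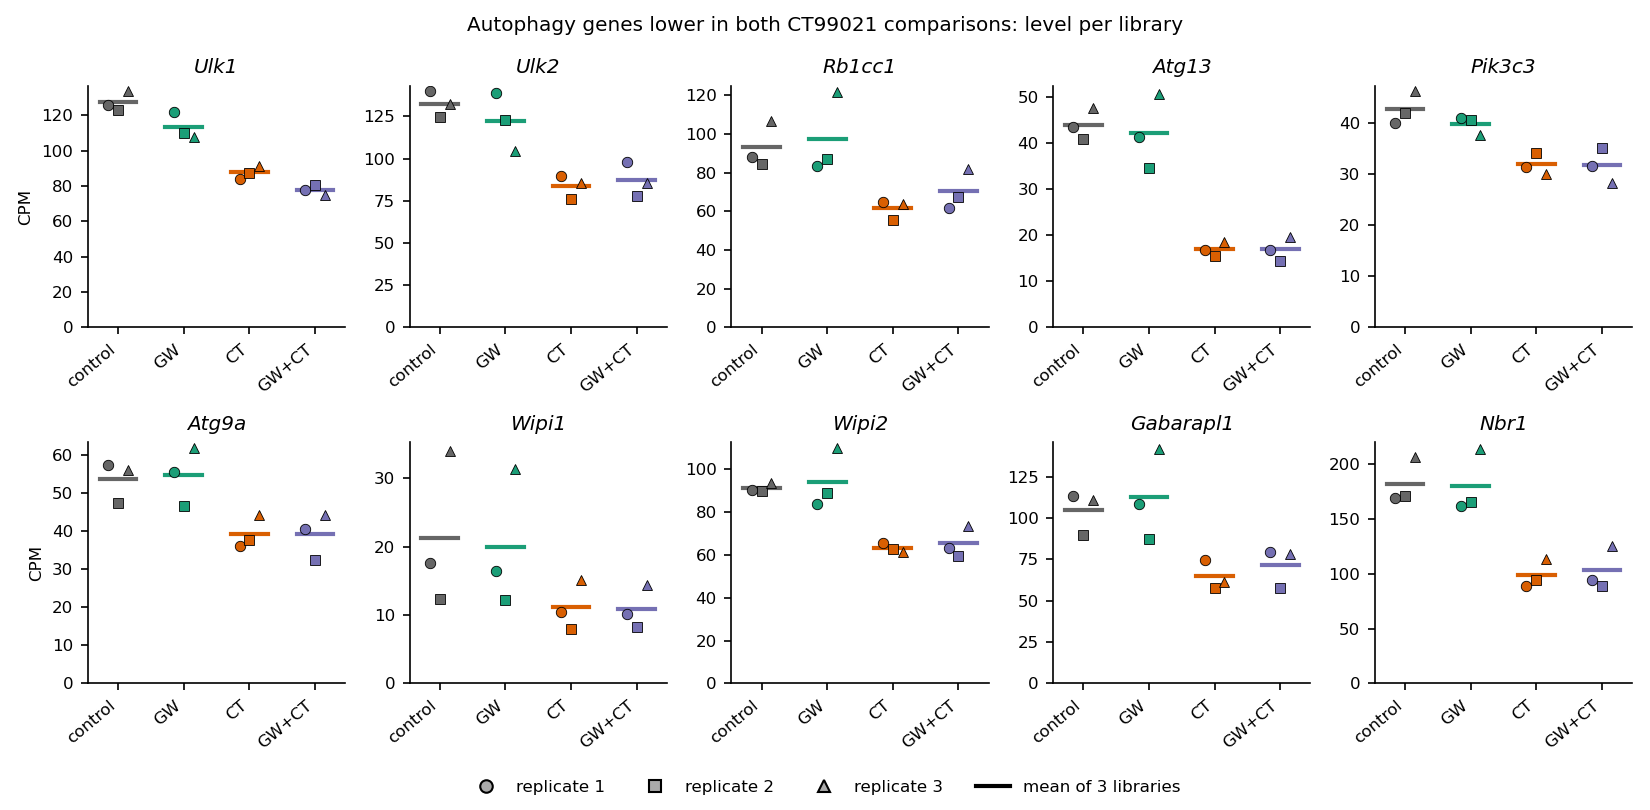
Level in CPM (y axis, from 0) of the 10 autophagy genes lower in both CT99021 comparisons, in each of the 12 libraries (marker shape gives the replicate number) with the mean of 3 libraries as a bar, by group (x axis). For Atg13 the CT99021 libraries lie at 15.5 to 18.4 CPM and the control libraries at 40.8 to 47.5 CPM, while for Wipi1 the groups overlap because replicate 3 is high in every group.

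Among the genes of the lipid kinase complexes 1 of 5 fell. Pik3c3 encodes Vps34, the catalytic subunit. It measured 40.03, 41.9 and 46.4 CPM in control, 31.4, 34.2 and 30.1 CPM in CT99021, 41.0, 40.7 and 37.7 CPM in GW3965 and 31.7, 35.2 and 28.4 CPM in combination libraries. The groups with CT99021 did not overlap those without it, and the log2 fold change against control was −0.42 ± 0.09 (adjusted p = 0.0155 with the block and 0.278 without, edgeR). Without CT99021 replicate 1 the change no longer passed (highest adjusted p = 0.0535). The adaptor subunits Pik3r4 (log2 fold change −0.24 ± 0.09) and Atg14 (−0.36 ± 0.12) were not past the test, although each was lower in 3 of 3 same-numbered pairs. Becn1, the regulatory subunit, had a positive estimate of 0.16 ± 0.07 that did not pass, and Uvrag, the subunit of the endosomal form of the complex, had one of 0.19 ± 0.18.

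Of the 6 genes for membrane supply and lipid binding 3 fell. Atg9a, a transmembrane protein of the vesicles that seed the autophagosome, measured 57.3, 47.4 and 56.0 CPM in control and 36.1, 37.7 and 44.2 CPM in CT99021 libraries. It measured 55.5, 46.5 and 61.9 CPM with GW3965 and 40.6, 32.5 and 44.4 CPM with both compounds, and no library with CT99021 reached the lowest without it. The log2 fold change against control was −0.44 ± 0.09 (adjusted p = 0.00966 with the block and 0.397 without, edgeR), which no longer passed without control replicate 1 or without control replicate 2 (highest adjusted p = 0.0626).

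Wipi1 and Wipi2 bind phosphatidylinositol 3-phosphate on the forming membrane, and Wipi2 recruits the conjugation machinery. Wipi2 (chromosome 5, position 143105437, plus strand, mm9) measured 90.2, 90.0 and 93.7 CPM in control, 65.4, 62.7 and 61.3 CPM in CT99021, 83.6, 88.7 and 110 CPM in GW3965 and 63.2, 59.6 and 73.5 CPM in combination libraries, again without overlap between libraries with and without CT99021. Its log2 fold change against control was −0.53 ± 0.09 (adjusted p = 0.00539 with the block and 0.193 without, edgeR). Wipi1 (chromosome 11, position 109434834, minus strand, mm9) measured 17.6, 12.4 and 34.0 CPM in control and 10.5, 7.99 and 15.1 CPM in CT99021 libraries, so the groups overlapped. Within each number the CT99021 library was lower, in 3 of 3 pairs, and the log2 fold change was −0.86 ± 0.14 (adjusted p = 0.0041 with the block and 0.548 without, edgeR). With GW3965 Wipi1 measured 16.4, 12.2 and 31.4 CPM and with both compounds 10.1, 8.18 and 14.4 CPM.

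Atg2a and Atg2b encode lipid transfer proteins that feed the growing membrane. Atg2a measured 51.0, 56.2 and 58.8 CPM in control, 39.0, 47.1 and 54.5 CPM in CT99021, 51.1, 51.0 and 57.5 CPM in GW3965 and 40.7, 43.4 and 43.9 CPM in combination libraries. Control and CT99021 libraries overlapped, whereas those with both compounds all lay below those with GW3965 alone. Atg2a was not past the test against control (log2 fold change −0.24 ± 0.08, adjusted p = 0.0657) and passed in the presence of GW3965 (−0.32 ± 0.08, adjusted p = 0.0219, both from edgeR with the replicate block, and 0.393 without it). The latter no longer passed without GW3965 replicate 1, without GW3965+CT99021 replicate 2 or 3, or with only the 7 libraries outside the set that stood apart (highest adjusted p = 0.114). The interaction, which tests the difference between these changes, did not pass for Atg2a. Atg2b (−0.21 ± 0.09) and Atg9b (0.74 ± 0.45), the latter at 0.396 to 0.88 CPM in control, were not past the test.

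Of the 7 conjugation genes 0 were lower and 1 was higher, where 7.59% and 8.23% of all tested genes were, so for 7 genes these counts are near the background. Atg16l1 encodes the protein that targets the Atg12-Atg5 conjugate to the membrane. It measured 37.7, 39.8 and 35.5 CPM in control and 62.1, 56.1 and 45.1 CPM in CT99021 libraries, which all lay above control. With GW3965 it measured 44.4, 41.5 and 41.5 CPM and with both compounds 46.1, 59.1 and 42.5 CPM. The log2 fold change of CT99021 against control was 0.52 ± 0.11 (adjusted p = 0.0122 with the block and 0.287 without, edgeR), and it no longer passed without CT99021 replicate 1 or without either of control replicates 1 and 2 (highest adjusted p = 0.0704).

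Atg3, the enzyme that transfers Atg8 proteins to lipid and the gene with a pair of CACGTG matches shown above, measured 31.2, 26.6 and 23.4 CPM in control and 34.997, 35.8 and 25.8 CPM in CT99021 libraries. Its groups overlapped and its estimate of 0.25 ± 0.10 did not pass. The other CACGTG-bearing genes, Atg5 (log2 fold change 0.12 ± 0.10), which is coupled to Atg12, and Atg7 (−0.03 ± 0.09), the activating enzyme of the cascade, did not pass either, nor did Atg12 (−0.04 ± 0.11), Atg10 (−0.46 ± 0.27) and Atg16l2 (0.07 ± 0.14). Summed over the 7 genes, conjugation transcripts amounted to 198 ± 9.996 CPM in control, 206 ± 7.01 with GW3965, 220 ± 30.2 with CT99021 and 222 ± 15.5 CPM with both (SD, n = 3 each). CT99021 libraries (188 to 248 CPM) overlapped control libraries (186 to 204 CPM), and those with both compounds (206 to 237 CPM) lay above control.

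The Atg4 proteases trim Atg8 proteins before conjugation and release them from membrane afterwards. None of the 4 genes passed, with log2 fold changes of −0.39 ± 0.15 for Atg4a, 0.05 ± 0.08 for Atg4b, 0.24 ± 0.16 for Atg4c and −0.04 ± 0.11 for Atg4d. Atg4b was the most abundant per kilobase, at 22.7 ± 2.63 CPM per kilobase in control. In the RefSeq annotation, genes on the opposite strand overlap Atg4a (Psmd10) and Atg4d (Kri1), and likewise Gabarapl1 (1700101I11Rik), Map1lc3b (Zcchc14), Becn1 (Cntd1), Atg9b (Nos3) and Atg12 (Ap3s1). Unless the authors' counting used strand, which the sources used here do not give, reads from such overlaps cannot be told apart. Scarna6 overlaps Atg16l1 and Mir1929 overlaps Atg5 on the same strand, where strand would not separate the reads.

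Of the 5 Atg8 family genes 2 fell. Gabarapl1 (chromosome 6, position 129483109, plus strand, mm9) measured 113, 89.7 and 111 CPM in control, 74.8, 57.9 and 61.3 CPM in CT99021, 109, 87.1 and 142 CPM in GW3965 and 79.2, 57.6 and 77.9 CPM in combination libraries. No library with CT99021 reached any without it, and the log2 fold change against control was −0.69 ± 0.11 (adjusted p = 0.00436 with the block and 0.284 without, edgeR), in a row that overlaps 1700101I11Rik on the opposite strand. Its close relative Gabarap stayed at 161 ± 30.1 CPM in control and 163 ± 25.9 CPM in CT99021 libraries, with a log2 fold change of 0.02 ± 0.07 that did not pass. The sums of the 5 Atg8 genes, 528 ± 55.2 CPM in control and 447 ± 31.5 CPM with CT99021, overlapped between libraries.

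Map1lc3b, the gene of the widely used autophagosome marker LC3B, measured 156, 138 and 180 CPM in control and 132, 116 and 134 CPM in CT99021 libraries, and 144, 121 and 162 CPM with GW3965 and 133, 115 and 116 CPM with both compounds. All CT99021 libraries lay below all control libraries. The log2 fold change of CT99021 against control was −0.30 ± 0.08 (adjusted p = 0.0359 with the block and 0.516 without, edgeR). It passed in 0 of 6 fits that each left out 1 library of the comparison (highest adjusted p = 0.127). Map1lc3a (−0.20 ± 0.09) and Gabarapl2 (−0.19 ± 0.09) did not pass.

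Among cargo receptors, which tie ubiquitinated cargo to Atg8 proteins, Nbr1 fell and the other two did not pass. Nbr1 (chromosome 11, position 101413320, plus strand, mm9) measured 168, 171 and 206 CPM in control, 88.4, 93.9 and 114 CPM in CT99021, 161, 165 and 213 CPM in GW3965 and 94.6, 89.0 and 125 CPM in combination libraries. The highest library with CT99021 stayed below the lowest without it. The log2 fold change against control was −0.89 ± 0.06 (adjusted p = 7.9e-05 with the block and 0.138 without, edgeR). Sqstm1, the gene of the receptor p62, averaged 320 ± 32.7 CPM in control and 287 ± 20.3 CPM in CT99021 libraries (log2 fold change −0.15 ± 0.12, adjusted p = 0.403). Optn, a receptor for mitochondria and bacteria, measured 10.1, 8.95 and 14.8 CPM in control and 10.7, 11.3 and 22.3 CPM in CT99021 libraries (0.33 ± 0.19, not past the test).

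**Figure D3:**
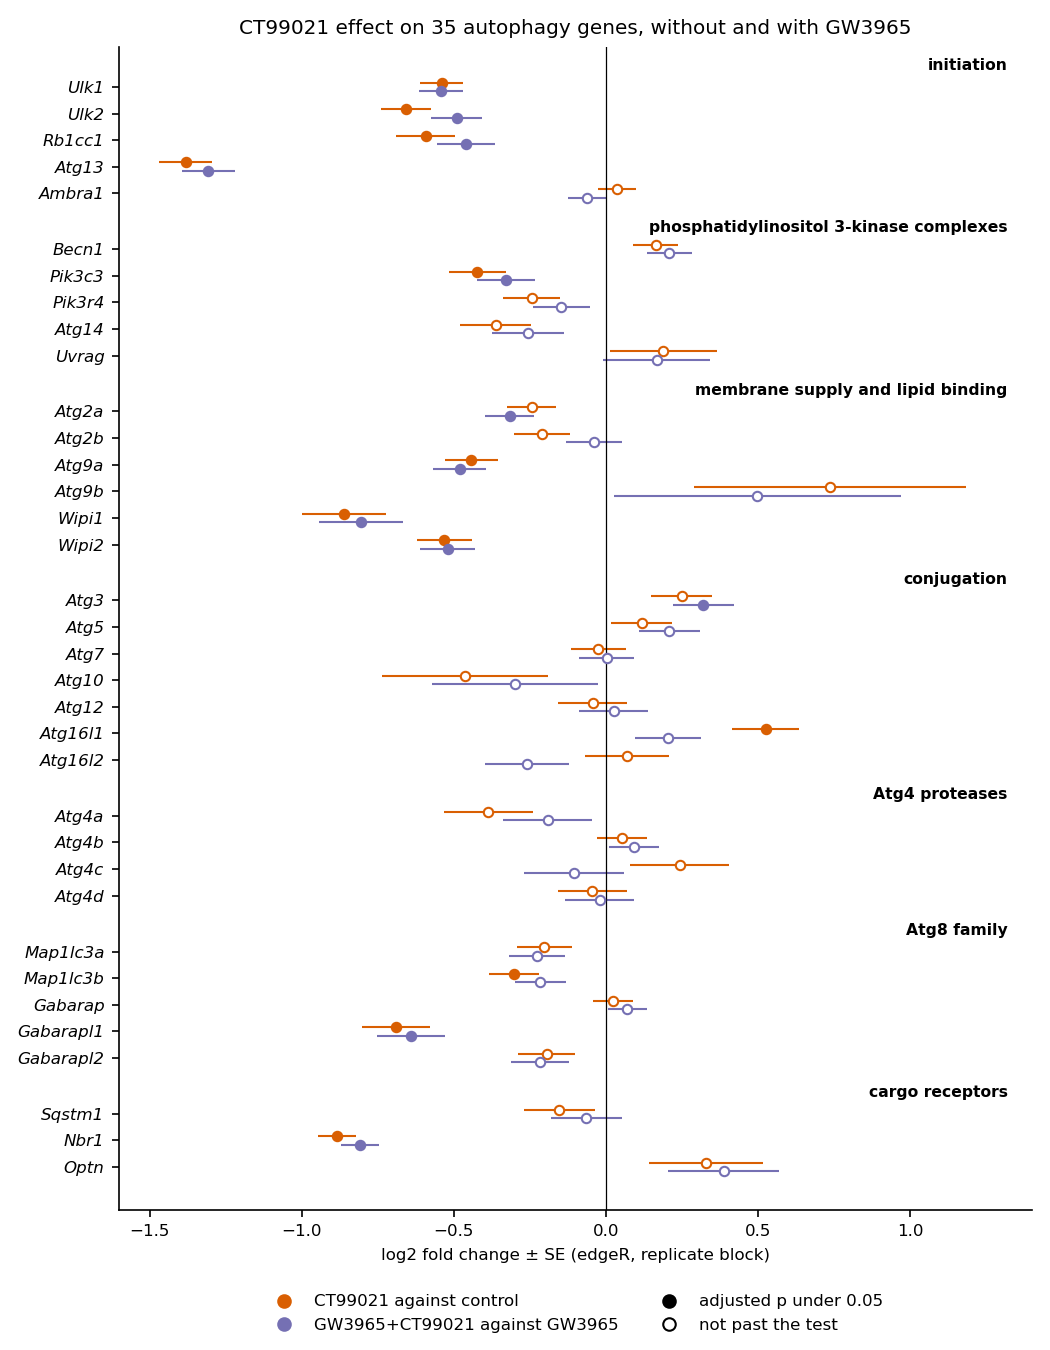
Log2 fold change with its SE (x axis) for each of the 35 autophagy genes (y axis, grouped by role) in CT99021 against control and in GW3965+CT99021 against GW3965. Filled points passed the test (edgeR, replicate block): Atg13 lies lowest, at −1.38 and −1.31, initiation genes other than Ambra1 lie to the left of 0, and no conjugation gene or Atg4 protease has a filled point there.

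The comparison of the combination with GW3965 alone repeats the CT99021 contrast in other libraries, since it shares none with CT99021 against control. Both were taken from the same fit, so they share each gene's estimated spread and the block terms, and their calls are not fully independent. Of the 35 genes 12 passed, against a background of 20.6% of tested genes, and 11 were lower, against 8.81% lower and 11.8% higher. Without the block 1 passed, Atg13 (log2 fold change −1.31 ± 0.17, adjusted p = 0.0173), against 0.0769% of tested genes. The median log2 fold change was −0.19, and 0.01 over all tested genes. Libraries did not overlap for 10 genes on the lower side, against a background of 7.2%.

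The 10 genes lower in both comparisons were Ulk1, Ulk2, Rb1cc1, Atg13, Pik3c3, Atg9a, Wipi1, Wipi2, Gabarapl1 and Nbr1. They are 90.9% of the 11 lower genes in each comparison and 28.6% of the 35, where 5.52% of all tested genes were lower in both, or 72.7% and 62.6% of those lower in each. In the presence of GW3965 the log2 fold changes were −0.54 ± 0.07 for Ulk1, −0.49 ± 0.08 for Ulk2, −0.46 ± 0.10 for Rb1cc1, −1.31 ± 0.09 for Atg13 and −0.33 ± 0.09 for Pik3c3. They were −0.48 ± 0.09 for Atg9a, −0.80 ± 0.14 for Wipi1, −0.52 ± 0.09 for Wipi2, −0.64 ± 0.11 for Gabarapl1 and −0.81 ± 0.06 for Nbr1. The change of Pik3c3 here passed in 1 of 6 fits that each left out 1 library (highest adjusted p = 0.150).

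Across the 35 genes the estimates of these comparisons had the same sign in 30, or 85.7%, and correlated with Pearson's r = 0.951 and Spearman's rho = 0.920. Over all tested genes the sign was shared by 78.5%, with r = 0.667 and rho = 0.688. These are descriptions across genes, which are not independent replicates, and same-numbered libraries of the comparisons may share a source. Under every alternative analysis that kept the block, 8 genes passed in both comparisons. They were Atg13, Gabarapl1, Nbr1, Rb1cc1, Ulk1, Ulk2, Wipi1 and Wipi2. The alternatives were 14 per comparison, of which 6 each left out 1 library of that comparison. Another, the fit to the 7 libraries outside the set that stood apart, kept a single GW3965+CT99021 library.

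Atg3 was the 1 higher gene in the presence of GW3965, with 28.9, 27.3 and 27.4 CPM in GW3965 and 37.7, 34.8 and 31.9 CPM in combination libraries. The groups did not overlap, and the log2 fold change was 0.32 ± 0.10 (adjusted p = 0.0458 with the block and 0.484 without, edgeR). It passed in 1 of 6 fits that each left out 1 library (highest adjusted p = 0.200). Atg16l1, higher after CT99021 alone, had 0.20 ± 0.11 here and did not pass.

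GW3965 alone asks what LXR activation did, and among the autophagy genes no change was past the test. With the block 0 of 35 passed (lowest adjusted p = 0.959), against a background of 0.0192% of tested genes, and without it 0 of 35 as well. Unadjusted p values under 0.05 were reached by 2 genes with the block, Atg16l2 at a log2 fold change of 0.35 ± 0.14 and Ulk1 at −0.17 ± 0.07, and by 0 without it. The estimates of all 35 lay between −0.19 and 0.35, with a median of −0.03. Adding GW3965 to CT99021 gave the same count, 0 of 35 in either fit against a background of 0.0192% with the block, with Ulk1 at −0.17 ± 0.07 as the 1 gene with an unadjusted p under 0.05.

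The interaction asks whether the compounds together depart from the sum of their log2 changes. None of the 35 genes and 0% of all tested genes passed in either fit. The smallest unadjusted p with the block was 0.0642, for Atg16l1, whose interaction was −0.32 ± 0.15 on the log2 scale. For Atg13 the combination averaged 16.9 ± 2.62 CPM and CT99021 alone 16.9 ± 1.46 CPM. For Ulk1 the averages were 77.9 ± 2.84 and 87.7 ± 3.60 CPM, all 3 combination libraries below all 3 CT99021 libraries, with an adjusted p of 0.734 (edgeR, replicate block).

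Against the control the combination moved 18 of 35 genes, 15 lower and 3 higher, where 20.3% of tested genes passed, 8.95% lower and 11.3% higher. This comparison shares its controls with that of CT99021 alone. The 10 genes named above were all among the lower ones, with Atg13 at −1.39 ± 0.09, Ulk1 at −0.71 ± 0.07 and Nbr1 at −0.83 ± 0.06. Without the block 2 genes passed, Atg13 (adjusted p = 0.0101) and Ulk1 (adjusted p = 0.0128), against 0.115% of tested genes. Leaving out control replicate 1, 2 or 3 brought the count of 18 down to 11, 10 and 11.

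The 5 further lower genes were Map1lc3b (log2 fold change −0.37 ± 0.08), Atg2a (−0.37 ± 0.08), Pik3r4 (−0.34 ± 0.09), Gabarapl2 (−0.32 ± 0.09) and Map1lc3a (−0.30 ± 0.09). Pik3r4 measured 41.3, 50.8 and 44.2 CPM in control and 37.5, 39.3 and 30.9 CPM in combination libraries, Gabarapl2 60.2, 56.0 and 52.2 CPM against 56.0, 47.6 and 33.1 CPM, and Map1lc3a 64.3, 43.3 and 36.7 CPM against 53.8, 33.6 and 30.1 CPM. Of these 3, the groups overlapped for Gabarapl2 and Map1lc3a, and each gene was lower in 3 of 3 pairs. Pik3r4 and Gabarapl2 each passed in 1 of 6 fits that left out a library, and Map1lc3a in 0 of 6.

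The 3 higher genes were Optn (log2 fold change 0.70 ± 0.19), Atg16l1 (0.38 ± 0.11) and Atg3 (0.37 ± 0.10). Optn measured 14.0, 11.4 and 35.9 CPM with both compounds and 10.6, 8.81 and 27.6 CPM with GW3965, and replicate 3 was the highest of its group in all 4 groups. In fits that left out a library Optn passed in 2 of 6, Atg16l1 in 1 of 6 and Atg3 in 0 of 6.

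A total of 17 genes passed in no comparison with the block: Ambra1, Becn1, Atg14, Uvrag, Atg2b, Atg9b, Atg5, Atg7, Atg10, Atg12, Atg16l2, the 4 Atg4 genes, Gabarap and Sqstm1. Over the 5 pairwise comparisons their log2 fold changes lay between −0.46 and 0.74, and their lowest adjusted p was 0.0518, for Atg14 in the combination against control. Their mean level in control libraries ran from 0.69 CPM for Atg9b to 320 CPM for Sqstm1. Data were also simulated for CT99021 against control. There the blocked fit recovered 27% of genes changed by 0.5 on the log2 scale and 66% of those changed by 1. The simulation changed 200 of 15497 genes, drawn at random, while 2470 genes were called in the data. With fewer genes changed the adjusted threshold is harder to pass, so these are not the recovery rates of this comparison. How often a change of the size seen for Ulk1 is missed was not measured. Absence from the calls is not absence of change.

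The genes around the core machinery were described from lists of regulators and further factors. These lists too were chosen with earlier results of these data known. Without the block 0 genes of these 5 lists passed in any comparison, so the calls that follow hold with the block only. Of 20 further autophagosome factors tested 7 fell and 2 rose after CT99021, where 7.59% of all tested genes were lower and 8.23% higher. Wdr45, a relative of the Wipi proteins, measured 15.4, 16.1 and 27.8 CPM in control and 7.44, 7.74 and 8.79 CPM in CT99021 libraries, without overlap (log2 fold change −1.26 ± 0.16, adjusted p = 0.00149 with the block and 0.191 without, edgeR). Atg101, the partner of Atg13 in the initiation complex, which the table lists as 9430023L20Rik, measured 23.0, 19.0 and 19.8 CPM in control and 14.0, 13.9 and 10.1 CPM in CT99021 libraries (−0.71 ± 0.16, adjusted p = 0.0162). With it, all 5 genes of the complex itself (Ulk1, Ulk2, Rb1cc1, Atg13 and Atg101) had fallen. Atg101 no longer passed without CT99021 replicate 1, without control replicate 1 or without control replicate 3 (highest adjusted p = 0.0608).

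Tax1bp1, a cargo receptor, also fell (153, 156 and 152 CPM in control and 113, 106 and 96.7 CPM with CT99021, log2 fold change −0.55 ± 0.07). So did Tecpr1 (−0.41 ± 0.09), Zfyve1 (−0.38 ± 0.08), Stx17 (−0.37 ± 0.10) and Epg5, listed as 5430411K18Rik (−0.25 ± 0.07), of which Stx17, Epg5 and Tecpr1 act at the fusion with the lysosome. The 2 that rose were Wdr45l (0.29 ± 0.08) and Rab7 (0.22 ± 0.07), the GTPase of late endosomes. In the presence of GW3965, 5 of the 20 fell and 2 rose, where 8.81% of all tested genes were lower and 11.8% higher. Wdr45 had −1.36 ± 0.16 and Atg101 −0.54 ± 0.16 there. Wdr45 and Tax1bp1 passed in every fit that left out a library in both CT99021 comparisons, whereas Rab7 passed in 0 of 6 against control and Atg101 in 1 of 6 in the presence of GW3965. Against control Zfyve1 passed in 4 of 6 such fits, Tecpr1 in 3, and Stx17, Epg5 and Wdr45l in 1 each, and all 5 failed without control replicate 2.

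Receptors and regulators of mitophagy and of the autophagy of endoplasmic reticulum gave 3 lower and 1 higher of 10 after CT99021, against the same background. Ccpg1, a receptor for endoplasmic reticulum, measured 45.2, 47.6 and 72.6 CPM in control and 20.0, 23.4 and 28.6 CPM with CT99021 (log2 fold change −1.18 ± 0.10, adjusted p = 1.8e-04, edgeR, replicate block). Bnip3l, a mitophagy receptor, measured 141, 146 and 215 CPM in control and 80.3, 84.4 and 97.4 CPM with CT99021 (−0.92 ± 0.09). Pink1, the kinase that marks damaged mitochondria, measured 59.7, 59.7 and 63.4 CPM in control and 40.4, 40.1 and 31.3 CPM with CT99021 (−0.72 ± 0.11). The groups overlapped for none of the 3. Phb2, an inner membrane protein of mitochondria, rose from 139, 140 and 92.1 CPM to 189, 198 and 128 CPM (0.47 ± 0.07), in 3 of 3 pairs. All 4 genes passed again in the presence of GW3965, at −1.11 ± 0.10, −0.88 ± 0.09, −0.70 ± 0.11 and 0.41 ± 0.07. Ncoa4, the receptor for ferritin, rose there too (0.29 ± 0.08) and passed in 1 of 6 fits that left out a library.

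**Figure D4:**
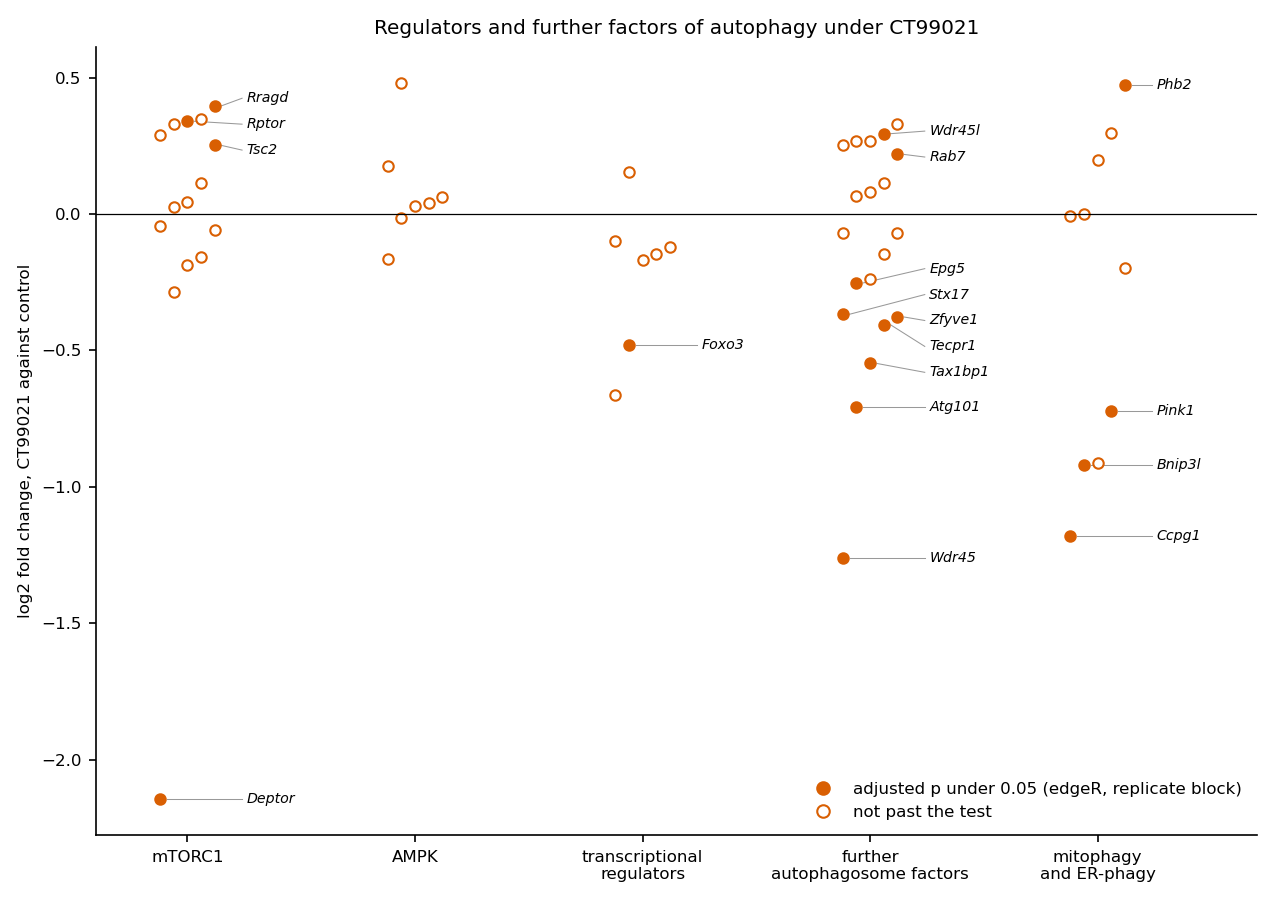
Log2 fold change of CT99021 against control (y axis) for genes of 5 lists around the autophagy machinery (x axis); each point is a gene, filled and named where it passed the test (edgeR, replicate block). The lowest filled points are Deptor (−2.14), Wdr45 (−1.26), Ccpg1 (−1.18), Bnip3l (−0.92), Pink1 (−0.72) and Atg101 (−0.71), and no AMPK gene is filled.

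Upstream regulators were described in the same way, against the same background of 7.59% of all tested genes lower and 8.23% higher after CT99021. Of 15 genes of mTORC1 and its inputs 3 rose after CT99021, Rptor, the defining subunit (log2 fold change 0.34 ± 0.09), Rragd, a GTPase that recruits it to lysosomes (0.40 ± 0.11), and Tsc2, its inhibitor (0.25 ± 0.06). Deptor, another inhibitor, fell, from 2.13, 1.68 and 1.35 CPM to 0.459, 0.377 and 0.330 CPM (−2.14 ± 0.43, adjusted p = 0.0103, edgeR, replicate block), a change that no longer passed without control replicate 2 (highest adjusted p = 0.0585). Rptor and Tsc2 passed in 2 of 6 and Rragd in 1 of 6 fits that left out a library, and all 3 failed without control replicate 1 or control replicate 2. In the presence of GW3965, where 8.81% of all tested genes were lower and 11.8% higher, only Rptor passed (0.42 ± 0.09). Deptor had −1.10 ± 0.37 there (adjusted p = 0.0598, edgeR, replicate block). With 1 lower gene of 15 after CT99021, the lower count was near the background. None of 7 AMPK genes passed in either comparison, where 15.8% and 20.6% of all tested genes did. In the combination against control 1 of the 7 AMPK genes was higher and 1 lower, and 4 and 1 of the 15 mTORC1 genes. There 11.3% of all tested genes were higher and 8.95% lower. Both AMPK calls passed in 0 of 6 fits that left out a library.

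Of 7 transcriptional regulators of autophagy 1 fell, a count near the background of 7.59% of all tested genes. It was Foxo3, which drives autophagy genes in several tissues. It measured 36.0, 35.4 and 49.8 CPM in control and 26.9, 27.2 and 32.0 CPM with CT99021, without overlap (log2 fold change −0.48 ± 0.11, adjusted p = 0.0206, edgeR, replicate block), and −0.47 ± 0.11 in the presence of GW3965. The latter no longer passed without GW3965 replicate 2, without GW3965+CT99021 replicate 2 or with only the 7 libraries outside the set that stood apart (highest adjusted p = 0.122). Without control replicate 1, 2 or 3 or CT99021 replicate 3 the change against control no longer passed (highest adjusted p = 0.0912). Tfeb was low, at 3.22 to 4.68 CPM in control, and its estimate of −0.12 ± 0.20 did not pass, nor did that of Tfe3 (−0.17 ± 0.10).

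Markers of cell types moved with CT99021 as well, with the block only. Of all tested genes, 7.59% were lower and 8.23% higher against control, and 8.81% and 11.8% in the presence of GW3965. Of 7 neural progenitor markers 3 were lower after CT99021 and 5 in the presence of GW3965. Of 7 ventral midbrain markers 2 and 3 were lower, and of 4 markers of the oligodendrocyte lineage 2 and 2. Of 5 neuron markers 2 were lower and 1 higher against control, and 1 was lower in the presence of GW3965. Of 6 mesenchyme markers 1 was higher against control and 4 in the presence of GW3965. Microglia and endothelium each had 1 lower of 3 tested markers in both comparisons. Dopaminergic neurons had 1 lower of 4 against control only. No forebrain, hindbrain and spinal cord or erythroid marker passed in either comparison. The summed neural progenitor level ranged from 2703 to 4224 CPM in control and from 2483 to 3543 CPM with CT99021, and the summed mesenchyme level from 220 to 2786 CPM and from 327 to 3658 CPM. No marker of these lists was at 0 in all libraries of a group. The part of these shifts in the autophagy results was not tested.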

How the data were processed

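Total RNA from neurospheres was sequenced as 12 Illumina TruSeq libraries, per the labels' protocols. The table the authors deposited holds raw counts of reads for each feature, as whole numbers that were not normalised, with transcript lengths and positions. The submitters' processing notes name Bowtie and build mm9. How reads were counted, and whether strand was used, is not given in the sources used here, so overlapping genes and near-identical copies are uncertain. Rows of repeat families (0.196% to 0.643% of all counts) were left out.

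All gene rows passing filterByExpr were fitted with edgeR 4.0.16 in R 4.3.3 (quasi-likelihood F test, TMM factors, a mean per group over 12 libraries, Benjamini-Hochberg threshold 0.05). CPM values use the TMM factors, and levels between genes are per kilobase of listed length. The fit set as the main one had no replicate block. Replicate numbers paired the libraries: deviations from group means correlated at 0.496 to 0.828 in all 18 same-numbered pairs of libraries, and at −0.677 to 0.241 in 36 pairs with different numbers and groups. Deviations from a group mean cancel within the group, so positive correlations of same-numbered pairs push the others down. The second range is therefore no separate evidence. The pairing comes from the data, not from the labels, and the genes are described from the fit with the block. The report gives the counts, and the adjusted p of most autophagy genes it describes, from the other fit too. Within groups all pairs of libraries differed by more than sampling noise (chi-square per gene at least 29.3). 

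On simulated data for CT99021 against control the fit with the block called 101 genes, 8 falsely, of 200 changed among 15497, and the fit without it called 10, 0 falsely, of 198 changed among 15443. Per-library values are given for autophagy genes past the test in at least 1 comparison, and the other autophagy genes by fold change or mean. Genes of the pathway lists are named where they passed in CT99021 against control or in GW3965+CT99021 against GW3965, some with per-library values. Genes of these lists that passed only in the combination against control, and cell type markers that passed, are not named. The 35 genes and the lists were chosen with earlier results of these data known. Older symbols were matched for Lamtor1, Epg5, Atg101, Rubcn and Map2. Alternatives were DESeq2 1.42.0, its size factors, limma-voom (limma 3.58.1), no filter, left-out libraries and fewer groups. Those added after seeing the data were only libraries numbered 1 and 2, and Lars2 left out. The fit to the 7 libraries outside the set that stood apart held a single GW3965+CT99021 library, so that group had no spread of its own.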

Additional observations from a re-analysis of the deposited data

How the results depend on the processing

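In the fit without the replicate block the count of autophagy genes past the test depended on the analysis. For CT99021 against control it was 1, and it became 12 with the replicate block, 7 with DESeq2, 2 with the 7 libraries outside the set that stood apart, 0 with only the 2 groups compared, 4 with libraries numbered 1 and 2, and 0 to 0 with 1 library left out. For GW3965+CT99021 against control it was 2, and became 18 with the replicate block, 6 with DESeq2, 0 with the 7 libraries, 0 with only the 2 groups, 4 with libraries numbered 1 and 2, and 0 to 1 with 1 library left out. For GW3965+CT99021 against GW3965 it was 1, and became 12 with the replicate block, 5 with DESeq2, 0 with the 7 libraries, 0 with only the 2 groups, 4 with libraries numbered 1 and 2, 2 with Lars2 left out, and 0 to 1 with 1 library left out. With the block kept, the count of 18 for GW3965+CT99021 against control became 11 with only the 2 groups and 10 to 14 with 1 library left out, and the counts of 12 became 9 to 13 in both other CT99021 comparisons. Some of these analyses used fewer libraries. The cause of the shifts was not tested. GW3965 against control, GW3965+CT99021 against CT99021 and the interaction gave 0 in every analysis run. For single genes, 630 alternative values in 42 pairs of autophagy gene and comparison gave 510 on the same side of the threshold, 120 weaker, of which 38 without the block, and 0 reversed. The 60 pairs for other named genes gave 658 on the same side, 242 weaker and 0 reversed out of 900. Transcripts below about 1 CPM, such as Atg9b, carry the largest counting error.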

Other observations

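Some autophagy genes have a neighbour that starts within 1000 bases on the opposite strand in the RefSeq annotation of GRCm38. The neighbour of Atg13, Harbi1, a gene derived from a transposase, was lower after CT99021 as well, by a log2 fold change of −0.68 ± 0.15 against control (SE; edgeR, replicate block, adjusted p = 0.0152) and −0.78 ± 0.15 in the presence of GW3965 (adjusted p = 0.00613). The neighbour of Atg9a, Ankzf1, a factor of ribosome-associated quality control, was lower by −0.55 ± 0.11 (adjusted p = 0.00998) and −0.65 ± 0.11 (adjusted p = 0.0037). Without control replicate 1 or control replicate 2 neither change passed against control, nor did that of Harbi1 without CT99021 replicate 1 or that of Ankzf1 without CT99021 replicate 2. Both passed in 6 of 6 such fits in the presence of GW3965. The neighbours of 2 other lowered genes did not pass: that of Nbr1 had −0.22 ± 0.10 against control (adjusted p = 0.180), and that of Gabarapl1, 1700101I11Rik, had −0.96 ± 0.35 (adjusted p = 0.0912) and −0.03 ± 0.34 in the presence of GW3965. The neighbour of Atg3, Slc35a5, had −0.07 ± 0.09 and that of Atg4b, Thap4, 0.31 ± 0.12, and neither passed. Harbi1 and Ankzf1 were singled out after their values were seen.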
